A study of Homo sapiens with 6 samples.

Results

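Histone genes and their variants were taken as all rows of the expression table whose gene name begins with HIST1H, HIST2H, HIST3H, HIST4H, H2AF, H1F or H3F, the older symbols of these genes. The rule took 17 of 10515 rows. They were 3 replication-dependent core histone genes (HIST1H2AC, HIST1H2BD and HIST2H2BE), 1 replication-dependent linker gene (HIST1H1C), 8 core variant genes (H2AFX, H2AFJ, H2AFZ, H2AFV, H2AFY, H2AFY2, H3F3A and H3F3B), 2 variant linker genes (H1F0 and H1FX) and 3 processed pseudogenes of histone H3.3 (H3F3AP4, H3F3AP6 and H3F3BP1). The table came from RNA sequencing of 3 established human bladder cancer cell lines after 2 days with quisinostat, an inhibitor of histone deacetylases, or with the solvent DMSO. RT4 cells, which carry an FGFR3-TACC3 fusion, received 50 nM; RT112 cells, also with an FGFR3-TACC3 fusion, received 10 nM; and SW780 cells, with a fusion the labels spell FGFR3-BAIBP2L1, received 25 nM. The cell line field of the SW780 quisinostat library reads SW781, while its title gives SW780, which was used for every SW780 ratio. Each line gave 1 DMSO and 1 quisinostat library, 6 in all, so the dose cannot be told apart from the line, and a ratio within a line has no replicate.

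Histones package DNA: 2 copies each of H2A, H2B, H3 and H4 form the nucleosome core, and linker histones of the H1 family bind where DNA enters and leaves it. Replication-dependent histone genes lie in clusters, are transcribed mainly in S phase, and give mRNAs that normally end in a stem-loop instead of a poly(A) tail. Variant genes are transcribed through the cell cycle, mostly give polyadenylated mRNAs, and supply histones that are deposited outside replication. The RNA here was selected by poly(A), so the values of the replication-dependent genes cover only the part of their RNA that carried a tail.

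Of the 71 protein-coding HIST names in GENCODE 29, 4 were among the rows analysed here, against 10 of the 16 protein-coding names that begin with H2AF, H3F or H1F. The stem-loop is printed for every member whose transcript holds one, since its place before a poly(A) signal bears on how a poly(A)-selected library can contain such an RNA. Each line gives 30 bases of the annotated GENCODE 29 transcript, 5′ to 3′, with the stem-loop in capitals.
HIST2H2BE: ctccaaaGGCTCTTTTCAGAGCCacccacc
HIST1H2AC: acccaaaGGCTCTTTTCAGAGCCcccctac
HIST1H2BD: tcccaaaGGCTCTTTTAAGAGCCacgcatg
H2AFX: ccacaaaGGCCCTTTTAAGGGCCaccaccg
The stem-loops, found with the metazoan histone stem-loop consensus on the transcript strand, lie in exons at chr1:149886188-149886203 (minus strand), chr6:26124669-26124684 (plus), chr6:26158587-26158602 (plus) and chr11:119094898-119094913 (minus) of GRCh38, in the order printed. HIST2H2BE and HIST1H2AC had the same 16 bases. In each of these transcripts a poly(A) signal followed the stem-loop. It was an AATAAA starting 1705 bases after it in HIST2H2BE, 1099 in HIST1H2AC and 12 in HIST1H2BD, and an ATTAAA 999 bases after it in H2AFX. The annotated HIST1H1C transcript of 642 bases held neither a stem-loop nor an AATAAA. It spans chr6:26055787-26056428 on the minus strand, so its start falls short of the RefSeq promoter, which begins at 26056471. The annotation may thus be incomplete at the start of the transcript. Whether it is complete at the other end, where a stem-loop would lie, was not tested. A stem-loop beyond an annotated end would be missed, here and in the counts that follow. Over all 71 HIST genes, 32 had an annotated transcript with the stem-loop and 19 had an AATAAA after it; of the 16 variant and linker genes, H2AFX was the 1 with a stem-loop, and 13 had an AATAAA.

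The 250 bases before the annotated start were searched on both strands for CCAAT, the octamer ATTTGCAT that histone H2B promoters are known for, and TATAAA, in RefSeq promoters (GRCh38.p14). Of the 17 genes 13 matched an entry. In the first entry of each gene CCAAT was found in 10 of 13, and in 4 of 4 replication-dependent genes, against 32.0% of 35116 promoters; counting every entry of a gene gave 11 of 13. TATAAA was found in 7 of 13 against 10.7%, and the octamer in 3 of 13 against 1.63%. Printed are the promoters of the 3 replication-dependent genes with a mean FPKM of at least 1 and of H2AFV, the 1 gene whose quisinostat library was above DMSO in every line; capitals mark matches on either strand, and no matches of different motifs overlap in them.
HIST1H1C (chr6:26056471-26056720, minus strand): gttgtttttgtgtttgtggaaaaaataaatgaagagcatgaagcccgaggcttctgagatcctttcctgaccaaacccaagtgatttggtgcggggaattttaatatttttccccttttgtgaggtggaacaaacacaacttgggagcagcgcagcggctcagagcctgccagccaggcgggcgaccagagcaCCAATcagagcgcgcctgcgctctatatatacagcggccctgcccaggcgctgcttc
HIST1H2AC (chr6:26123922-26124171, plus strand): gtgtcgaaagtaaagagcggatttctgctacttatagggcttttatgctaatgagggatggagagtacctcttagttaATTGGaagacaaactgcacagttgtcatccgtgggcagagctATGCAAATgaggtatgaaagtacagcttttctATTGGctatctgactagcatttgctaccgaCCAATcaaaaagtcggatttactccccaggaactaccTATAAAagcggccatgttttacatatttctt
HIST1H2BD (chr6:26157871-26158120, plus strand): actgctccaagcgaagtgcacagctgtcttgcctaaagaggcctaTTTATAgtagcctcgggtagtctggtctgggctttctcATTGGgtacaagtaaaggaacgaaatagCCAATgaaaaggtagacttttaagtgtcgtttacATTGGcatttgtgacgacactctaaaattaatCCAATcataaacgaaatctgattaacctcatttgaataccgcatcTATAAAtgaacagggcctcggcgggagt
H2AFV (chr7:44848088-44848337, minus strand): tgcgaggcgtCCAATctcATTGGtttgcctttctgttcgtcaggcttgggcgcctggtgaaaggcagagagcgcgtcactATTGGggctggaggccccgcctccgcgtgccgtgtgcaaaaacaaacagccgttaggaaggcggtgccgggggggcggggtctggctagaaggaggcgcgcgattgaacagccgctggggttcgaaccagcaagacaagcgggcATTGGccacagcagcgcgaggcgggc
A match is a description of the letters and not a site in use.

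The unit is FPKM, the fragments of a transcript divided by its length and by the mapped fragments of the library, which allows levels of different genes to be compared per length. All 17 genes were above 0 in all 6 libraries, and 16 had a mean FPKM of at least 1; HIST2H2BE, at a mean of 0.829 FPKM, was the exception. Among the 6 libraries the median FPKM over all loci was 6.59 to 7.39, read depth is unknown, and 12 to 14 of 15 bladder epithelial markers were at an FPKM of at least 1.

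The 14 coding genes summed to 512 to 666 FPKM per library. The 4 replication-dependent genes made up 1.73% to 3.39% of that sum, and the 3 core genes among them summed to 2.35 to 4.90 FPKM. The plot of levels shows H2AFZ, which encodes H2A.Z.1, as the gene with the highest level in every library, and the core replication-dependent genes at the other end.

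**Figure D1:**
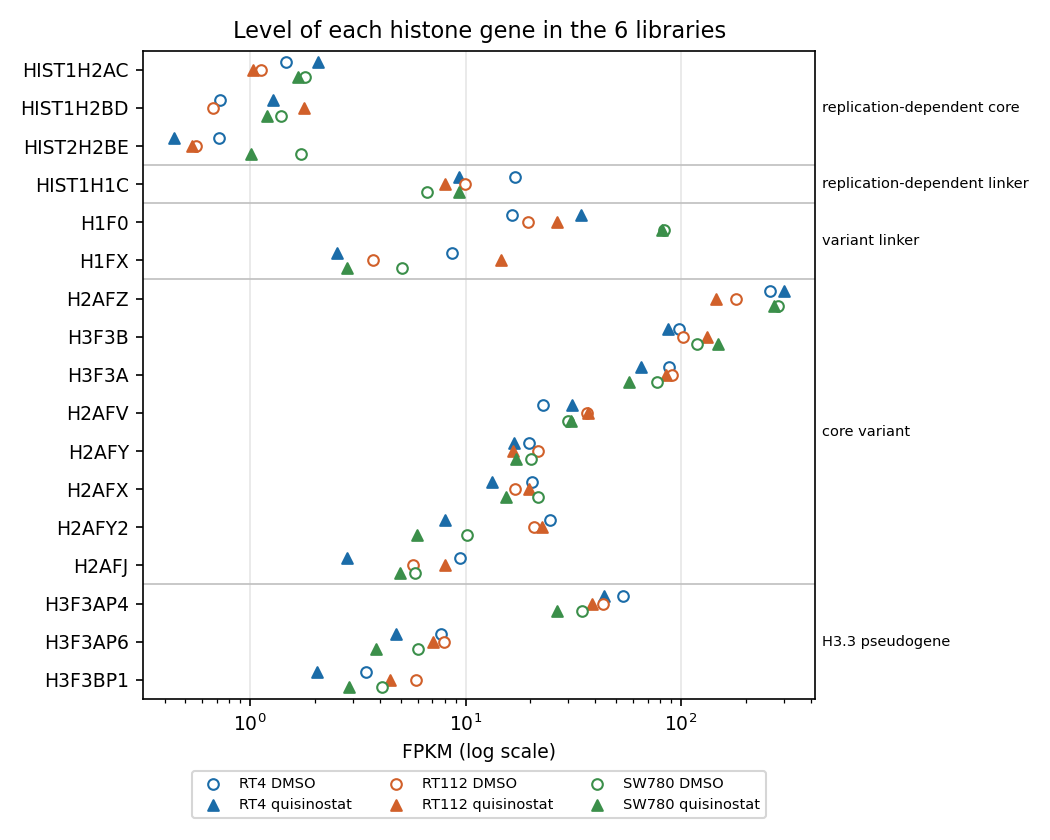
FPKM of each histone gene (x axis, log scale) in the 6 libraries, by class; open circles are DMSO and filled triangles quisinostat, with 1 library per symbol and no error bar. H2AFZ lies between 145 and 303 FPKM, and HIST1H2AC, HIST1H2BD and HIST2H2BE lie at or below 2.07 FPKM in all libraries.

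The comparison of quisinostat with DMSO asked which genes the inhibitor moved in the same direction in all lines. A log2 ratio of FPKM (quisinostat over DMSO of the same line, no pseudocount) below -0.3 in every line was counted, the study's criterion for lower genes, and the same cut was applied upward, above 0.3. H3F3BP1 was the 1 member below -0.3 in all lines, where 4.99% of 9112 loci were, and 0 members were above 0.3 in all lines, where 11.4% of loci were. With limma on log2(FPKM + 1) and the cell line as a block, 0 of 16 members had a Benjamini-Hochberg adjusted p under 0.05, against 0% of 9430 loci tested. At an unadjusted p under 0.05, 0 of 16 members passed, against 13.8% of loci. The lowest adjusted p of a member was 0.410, for H2AFY2. The values of single genes that follow therefore describe libraries and carry no call for quisinostat.

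Within lines, 4 members were above 0.3 and 9 below -0.3 in RT4, where 40.3% and 33.5% of all loci were. In RT112, 5 were above and 4 below, against 36% and 25.2%. In SW780, 2 were above and 8 below, against 32.8% and 28.2%. For RT4, RT112 and SW780, in that order, the 17 members had medians of -0.42, -0.06 and -0.24 on the log2 scale, and all loci 0.08, 0.06 and 0.04. In bulk RNA, fewer cells in a phase that makes a transcript and less of it per cell cannot be told apart.

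The 4 replication-dependent genes had median log2 ratios of -0.10, -0.09 and -0.16 (RT4, RT112, SW780), a mean of -0.12 ± 0.04 (SD, n = 3 lines). The 10 core variants and variant linkers had medians of -0.32, 0.17 and -0.23 in the same order, a mean of -0.13 ± 0.26 (SD, n = 3 lines). The means of the classes differed by less than the spread between lines, but their order differed by line: the variants had the lower median in RT4 and SW780 and the higher in RT112. After GC correction the medians were -0.01, 0.09 and -0.13 for the variants and -0.06, 0.06 and -0.23 for the replication-dependent genes, so the variants were the higher in each line and the difference in order was lost. The mean for the replication-dependent genes became 0.09 when HIST2H2BE was left out for its low level. The 3 pseudogenes had medians of -0.69, -0.18 and -0.52.

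The log2 ratios of all loci moved with the GC content of the transcript, in opposite directions in different lines. Over 8258 loci, Spearman's rho between ratio and GC was -0.50, 0.44 and -0.23 for RT4, RT112 and SW780; over the 17 members it was -0.63, 0.19 and -0.33. These are correlations across genes, which are not independent replicates, and the points share a pair of libraries. The part of GC content in each ratio was not tested beyond a correction, in which a smooth curve on GC was subtracted in each line. For the 17 members corrected values are given beside the uncorrected ones, and a direction that turned with the correction is named. For genes outside the members, named further below, corrected values are given for some and where a direction turned.

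**Figure D2:**
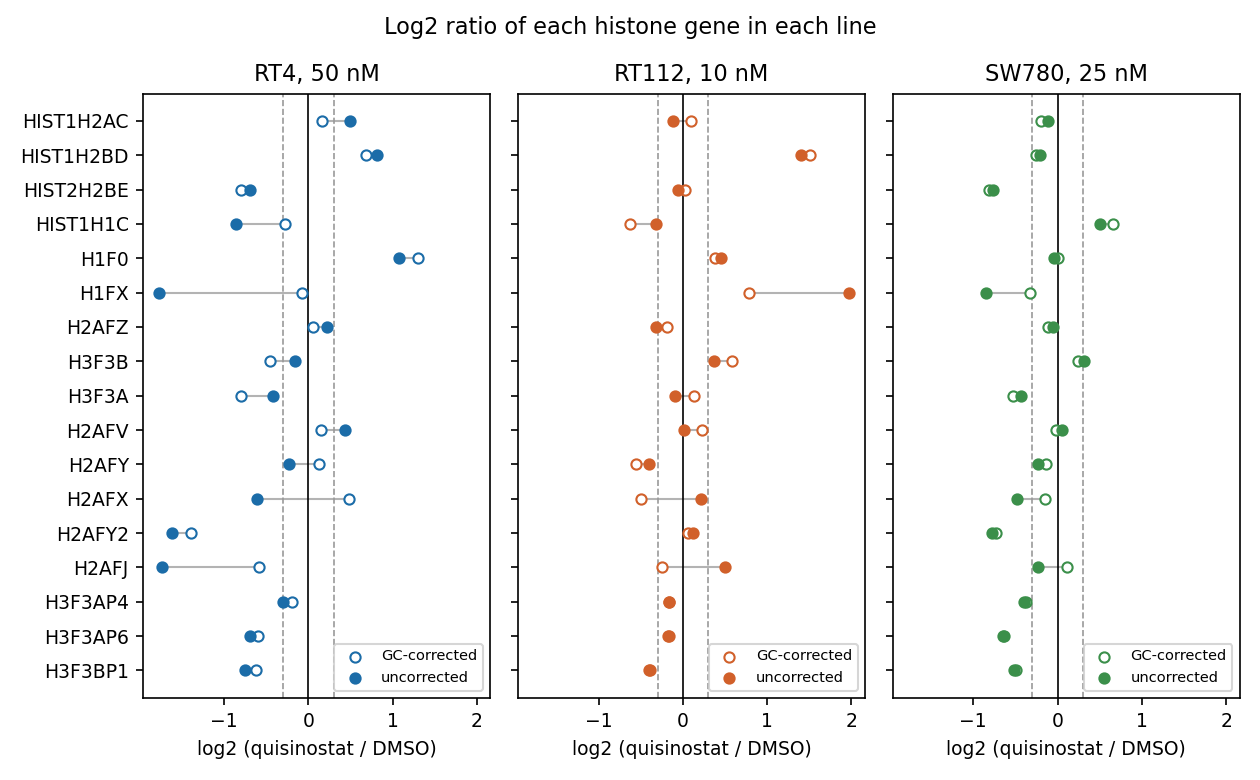
Log2 ratio of FPKM, quisinostat over DMSO (x axis), of each histone gene in RT4, RT112 and SW780; filled points are uncorrected, open points GC-corrected, dashed lines mark -0.3 and 0.3, and each point rests on 1 library per treatment. H1FX moves most with the correction, from -1.77 to -0.08 in RT4 and from 1.98 to 0.78 in RT112.

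Levels and ratios of the 3 linker histone genes varied among the libraries. Limma's F test between lines, given below, called H1F0 but not HIST1H1C (adjusted p = 0.411) or H1FX (adjusted p = 0.650). Differences in ratio between lines were not tested. H1F0 encodes H1.0, a linker histone known to accumulate in cells that stop dividing and differentiate. Its level was 16.4 FPKM with DMSO and 34.5 with quisinostat in RT4, 19.6 and 26.7 in RT112, and 83.7 and 81.3 in SW780. Both SW780 libraries were thus above all 4 libraries of the other lines, and the quisinostat library was the higher one in RT4 and RT112. The log2 ratios were 1.08, 0.45 and -0.04, and 1.30, 0.38 and 0.01 after GC correction, so SW780 turned from just below to just above 0. Over the lines the limma difference was 0.47 ± 0.25 (SE, adjusted p = 0.435).

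H1FX encodes the linker variant H1X. It stood at 8.67 and 2.54 FPKM in RT4, 3.73 and 14.7 in RT112, and 5.05 and 2.80 in SW780, DMSO first. The quisinostat library was lower in RT4 and SW780 and higher in RT112, with log2 ratios of -1.77 (RT4), 1.98 (RT112) and -0.85 (SW780). Its transcript GC content is 68.6%, and corrected ratios were -0.08 for RT4, 0.78 for RT112 and -0.32 for SW780. Its limma difference was -0.13 ± 0.61 (SE, adjusted p = 0.937), the largest standard error of the 16 members tested.

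HIST1H1C encodes H1.2, the replication-dependent linker of the table. Levels were 17.0 and 9.36 FPKM in RT4, 9.99 and 8.03 in RT112, and 6.61 and 9.37 in SW780. The quisinostat library was the lower one in RT4 and RT112 and the higher one in SW780, with log2 ratios of -0.86, -0.31 and 0.50, and -0.28, -0.63 and 0.66 after GC correction. The limma difference was -0.21 ± 0.29 (SE, adjusted p = 0.752).

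As a share of the summed FPKM of these 3 linker genes, H1F0 went from 38.9% to 74.3% in RT4, while it was 58.8% and 54.0% in RT112 and 87.8% and 87.0% in SW780. HIST1H1C took 40.4% and 20.2% in RT4, 30.01% and 16.3% in RT112, and 6.93% and 10.0% in SW780. H1FX took 20.6% and 5.48% in RT4, 11.2% and 29.7% in RT112, and 5.29% and 2.998% in SW780. The sum was 42.0 and 46.4 FPKM in RT4, 33.3 and 49.4 in RT112, and 95.4 and 93.5 in SW780. In RT4 the makeup thus differed between the libraries while the uncorrected sums were close. Shares and sums are of FPKM without GC correction and were not recomputed with it. In RT4 the correction moved the log2 ratio of H1FX from -1.77 to -0.08 and that of HIST1H1C from -0.86 to -0.28. The shares and the closeness of the sums may therefore not hold after it.

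**Figure D3:**
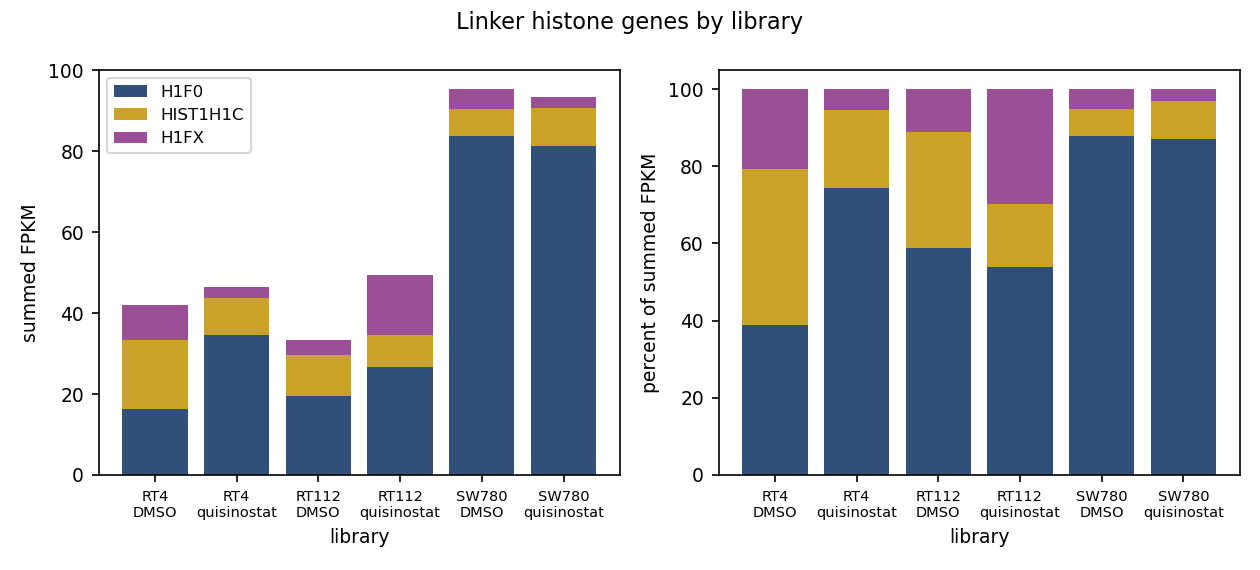
Linker histone genes H1F0, HIST1H1C and H1FX in each library, as summed FPKM (left) and as percent of the sum (right), without GC correction. Each bar is 1 library, without an error. In SW780 H1F0 holds 87.8% and 87.0% of the sum, and in RT4 38.9% with DMSO and 74.3% with quisinostat.

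Between cell lines, limma's F test of the line terms in the same fit called 562 loci, or 5.96% of 9430 (Benjamini-Hochberg adjusted p under 0.05). H1F0 was the 1 member called (adjusted p = 0.043). On the log2(FPKM + 1) scale it was higher in SW780 than in RT4 by 1.75 ± 0.30 (SE, limma adjusted p = 0.042) and than in RT112 by 1.81 (limma adjusted p = 0.062), and RT112 differed from RT4 by -0.06 (limma adjusted p = 0.928). The call was lost in 4 other fits, in which the lowest limma adjusted p of any member was 0.061 (no mean-variance trend), 0.068 (no treatment term), 0.091 (without RT4) and 0.304 (without SW780). In the same order those fits called 604, 354, 0 and 64 of 9430 loci, so without RT4 the loss was not particular to H1F0. The fit without SW780 compares only RT4 with RT112. H2AFZ and H2AFY2 had unadjusted limma p-values of 0.022 and 0.046 between lines, and adjusted values of 0.110 and 0.156. The 2 libraries of a line are the replicates here, and they also differ in treatment.

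Replication-dependent core histone genes were low. HIST1H2AC (H2A, chr6:26124145-26139116) stood at 1.47 and 2.07 FPKM in RT4, 1.12 and 1.03 in RT112, and 1.80 and 1.67 in SW780. HIST1H2BD (H2B, chr6:26158146-26171349) stood at 0.73 and 1.28 in RT4, 0.67 and 1.77 in RT112, and 1.39 and 1.20 in SW780. The quisinostat library was above DMSO for both in RT4 and below it for both in SW780, while in RT112 HIST1H2BD was above and HIST1H2AC below. Log2 ratios were 0.50, -0.12 and -0.11 for HIST1H2AC and 0.81, 1.40 and -0.21 for HIST1H2BD, with limma differences of 0.06 ± 0.31 (SE, adjusted p = 0.940) and 0.34 ± 0.35 (SE, adjusted p = 0.674). After GC correction the ratios were 0.16, 0.10 and -0.19 for HIST1H2AC, whose RT112 value turned, and 0.69, 1.51 and -0.26 for HIST1H2BD.

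HIST2H2BE (H2B, chr1:149884459-149886652, minus strand) had between 0.44 and 1.71 FPKM, under the filter of the limma fit. Its quisinostat library was below DMSO in each line, with log2 ratios of -0.69, -0.06 and -0.77, and -0.80, 0.03 and -0.81 after GC correction. These genes did not share a direction in RT4, where 2 H2A and H2B genes were above 0.3 and HIST2H2BE below -0.3. HIST1H2BD has 2 annotated transcripts, 1 of which, spliced to 789 bases, lacks the stem-loop printed above; the gene-level value does not separate them.

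H2A variants differed among themselves. H2AFZ and H2AFV encode H2A.Z.1 and H2A.Z.2, which mark nucleosomes at promoters. H2AFZ stood at 259.6 and 303 FPKM in RT4, 181 and 145 in RT112, and 282 and 271 in SW780; the RT112 libraries were the lowest. H2AFV stood at 22.9 and 31.05 in RT4, 36.7 and 37.2 in RT112, and 29.9 and 31.0 in SW780. H2AFV was the 1 member with a higher quisinostat library in all lines, as were 22.9% of all loci, with log2 ratios of 0.44, 0.02 and 0.05. After GC correction they were 0.15, 0.23 and -0.02, so SW780 turned. Those of H2AFZ were 0.22, -0.32 and -0.06, and 0.06, -0.19 and -0.11 after correction. Limma gave 0.16 ± 0.18 (SE, adjusted p = 0.698) for H2AFV and -0.05 ± 0.18 (SE, adjusted p = 0.918) for H2AFZ.

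H2AFX encodes H2A.X, which is phosphorylated around DNA breaks, and H2AFJ encodes H2A.J, a variant reported in senescent cells. H2AFX stood at 20.3 and 13.3 FPKM in RT4, 16.9 and 19.6 in RT112, and 21.6 and 15.5 in SW780. The row shares its assembled locus with DPAGT1 and holds the same values, so the genes cannot be told apart. H2AFJ stood at 9.38 and 2.81 in RT4, 5.69 and 8.05 in RT112, and 5.84 and 4.96 in SW780. For both, the quisinostat library was lower in RT4 and SW780 and higher in RT112. Their log2 ratios were -0.61, 0.21 and -0.48 for H2AFX and -1.74, 0.50 and -0.24 for H2AFJ. After GC correction those of H2AFX were 0.49, -0.50 and -0.14, so RT4 and RT112 turned. Those of H2AFJ were -0.59, -0.25 and 0.12, so RT112 and SW780 turned. The limma adjusted p was 0.593 for H2AFX and 0.648 for H2AFJ.

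H2AFY and H2AFY2 encode macroH2A1 and macroH2A2, H2A forms with a large macro domain that are enriched in silent chromatin. H2AFY was even between lines, at 19.6 and 16.7 FPKM in RT4, 21.8 and 16.5 in RT112, and 20.2 and 17.2 in SW780. It was the 1 member with every quisinostat library below every DMSO library, as were 4.43% of all loci; 0 members had them all above, as did 6.18%. The log2 ratios were -0.23, -0.40 and -0.23, and 0.12, -0.55 and -0.14 after GC correction, so RT4 turned. The limma difference was -0.27 ± 0.18 (SE, adjusted p = 0.508).

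H2AFY2 stood at 24.7 and 8.07 FPKM in RT4, 20.8 and 22.6 in RT112, and 10.2 and 5.95 in SW780. The RT4 quisinostat library was at 0.326 times and the SW780 one at 0.583 times the DMSO level, while those of RT112 were close. The log2 ratios were -1.62, 0.12 and -0.78, and -1.39, 0.05 and -0.73 after GC correction, so RT4 and SW780 kept the lower quisinostat library. The limma difference was -0.69 ± 0.33 (SE, adjusted p = 0.410). H2AFY2 was 1 of 7 members below -0.3 in both RT4 and SW780, where 17.9% of all loci were. The others were H3F3A, H2AFX, H1FX, HIST2H2BE, H3F3BP1 and H3F3AP6. After GC correction H2AFX (0.49 in RT4) and H1FX (-0.08 in RT4) no longer were. H3F3A, H3F3BP1 and H3F3AP6 share sequence and are not independent.

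H3F3A and H3F3B encode the same protein, histone H3.3, from different nucleotide sequences. H3F3A stood at 87.6 and 65.5 FPKM in RT4, 90.8 and 85.2 in RT112, and 77.2 and 57.2 in SW780. H3F3B stood at 97.5 and 87.3 in RT4, 103 and 132 in RT112, and 119 and 148 in SW780. The H3F3A quisinostat library was below DMSO in all lines and that of H3F3B was above it in RT112 and SW780. Log2 ratios were -0.42, -0.09 and -0.43 for H3F3A and -0.16, 0.37 and 0.31 for H3F3B. After GC correction they were -0.80, 0.13 and -0.53 for H3F3A, whose RT112 value turned, and -0.45, 0.58 and 0.24 for H3F3B. Limma gave -0.31 ± 0.17 (SE, adjusted p = 0.452) and 0.17 ± 0.19 (SE, adjusted p = 0.681).

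Together the pair summed to 153 to 218 FPKM. The H3F3B share of the sum was 52.7% and 57.1% in RT4, 53.1% and 60.8% in RT112, and 60.7% and 72.2% in SW780. It was higher with quisinostat in 3 of 3 lines, and the log2 ratio of H3F3B over H3F3A shifted by 0.26, 0.46 and 0.75, a mean of 0.49 ± 0.24 (SD, n = 3 lines). An exact two-sided sign-flip permutation test over the lines gave p = 0.25, the smallest that 3 lines allow. After GC correction the shifts were 0.34, 0.45 and 0.77. The pair was chosen after its values were seen.

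The H2AFV share of H2AFV and H2AFZ was 8.12% and 9.31% in RT4, 16.9% and 20.4% in RT112, and 9.59% and 10.3% in SW780. The shift in log2 ratio was 0.22, 0.34 and 0.11, a mean of 0.22 ± 0.11 (SD, n = 3 lines, exact permutation p = 0.25, the smallest possible), and 0.09, 0.42 and 0.09 after GC correction. This pair was also chosen after its values were seen. The H2AFY2 share of both macroH2A genes was 55.8% and 32.5% in RT4, 48.8% and 57.8% in RT112, and 33.6% and 25.7% in SW780, without a common direction.

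**Figure D4:**
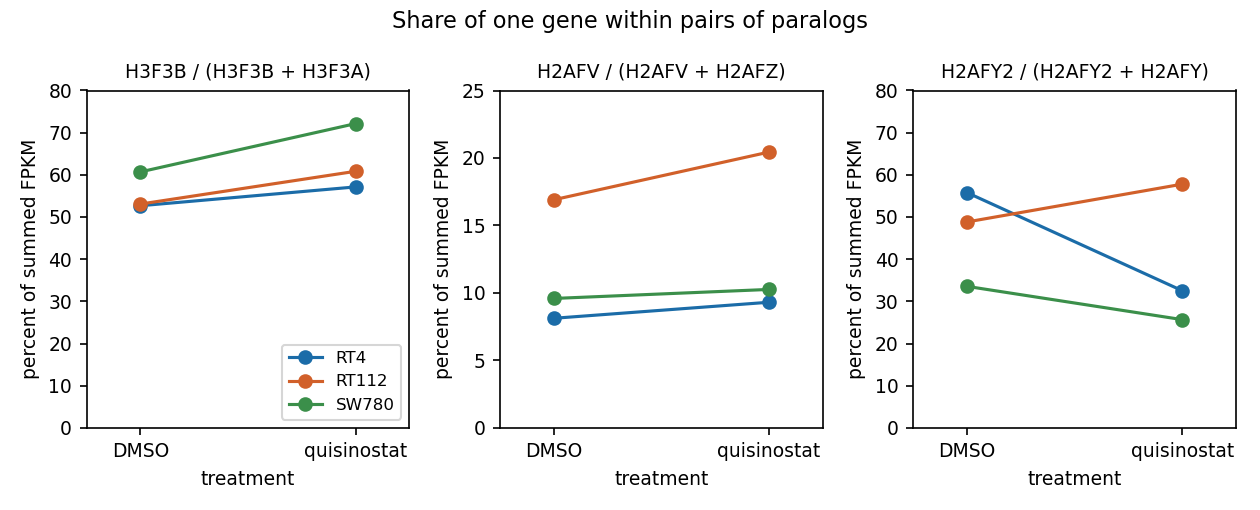
Share of H3F3B, H2AFV and H2AFY2 in the summed FPKM of each pair of paralogs (y axis, percent; the scale of the middle panel is smaller) with DMSO and quisinostat; each point is 1 library and lines join a cell line. The H3F3B and H2AFV shares are higher with quisinostat in 3 of 3 lines, and the H2AFY2 share is lower in RT4 and SW780.

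The 3 H3.3 pseudogenes are copies of an H3.3 mRNA inserted elsewhere in the genome, and their identity to the parents bears on what their values count. A stretch of 90 bases (positions 301 to 390 from the A of the start codon) is printed here, with bases that differ from H3F3A in capitals.
H3F3A: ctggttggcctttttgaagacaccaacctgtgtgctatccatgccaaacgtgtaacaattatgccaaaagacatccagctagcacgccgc
H3F3AP4: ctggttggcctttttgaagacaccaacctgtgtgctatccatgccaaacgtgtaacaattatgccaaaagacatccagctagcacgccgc
H3F3AP6: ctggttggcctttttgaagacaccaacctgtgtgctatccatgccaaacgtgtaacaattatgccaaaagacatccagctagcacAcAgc
H3F3BP1: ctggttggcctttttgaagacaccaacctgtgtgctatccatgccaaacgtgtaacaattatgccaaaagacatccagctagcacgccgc
H3F3B: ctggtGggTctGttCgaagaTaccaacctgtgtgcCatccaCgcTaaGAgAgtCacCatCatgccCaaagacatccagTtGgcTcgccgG
In this window H3F3AP4 and H3F3BP1 had 0 differences from H3F3A, H3F3AP6 had 2 and H3F3B had 19. Over the annotated length H3F3AP4 was identical to the H3F3A coding sequence at 411 of 411 bases and H3F3AP6 at 408 of 411. H3F3BP1, despite its name, was identical to H3F3A at 397 of 403 bases and to H3F3B at 311 of 403. The longest stretch that H3F3B shared with H3F3A was 14 bases. Reads of the pseudogenes and of H3F3A can therefore not be separated over long stretches, and the values of all 4 are uncertain to that extent.

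H3F3AP4 (chr2:174719908-174720318) stood at 54.0 and 43.9 FPKM in RT4, 43.4 and 38.6 in RT112, and 34.8 and 26.5 in SW780, which is 45.1% to 67.0% of the H3F3A level in the same library. H3F3AP6 (chr4:139698144-139698554, inside MGST2 on the other strand) stood at 7.68 and 4.75, 7.97 and 7.03, and 6.03 and 3.85 in the same order. H3F3BP1 (chr13:71675067-71675469, inside DACH1 on the other strand) stood at 3.44 and 2.05, 5.87 and 4.47, and 4.10 and 2.87. The quisinostat library was below DMSO for all 3 in all 3 lines, as for H3F3A. Log2 ratios were -0.30, -0.17 and -0.40 for H3F3AP4, -0.69, -0.18 and -0.65 for H3F3AP6, and -0.75, -0.39 and -0.52 for H3F3BP1, and limma adjusted p-values were 0.479, 0.429 and 0.454. After GC correction the ratios were -0.19, -0.16 and -0.38 for H3F3AP4, -0.60, -0.17 and -0.63 for H3F3AP6, and -0.62, -0.40 and -0.49 for H3F3BP1. With the pseudogene levels added to H3F3A, the shift toward H3F3B was 0.23, 0.50 and 0.75.

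Of the 17 members, 6 had the quisinostat library below DMSO in all lines: HIST2H2BE, H3F3A, H2AFY and the 3 pseudogenes; 16.6% of all loci did. After GC correction HIST2H2BE and H3F3A (RT112) and H2AFY (RT4) no longer did. H3F3A and the pseudogenes share sequence and are not independent. GENCODE 29 places genes on the opposite strand over part of H3F3A, H3F3B, H1FX, H2AFZ, H2AFY, H2AFY2 and HIST1H2BD. The libraries were stranded, but whether the quantification used strand is not given in the sources used here.

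Genes that process histone mRNA, carry histones or act in S phase were counted on the same criterion. Of 13 listed genes for histone mRNA processing 9 were in the table, 31 of 32 for chaperones and deposition, and 26 of 26 for S phase, with MCM2 on 2 of the lists. None of the genes was above 0.3 in all lines (0 on each list, against 11.4% of loci), although after GC correction ASF1A was. Below -0.3 in all lines were 0 of 9, 4 of 31 and 5 of 26, against 4.99% of loci. With limma, 0 genes of the lists had an adjusted p under 0.05.

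S phase genes had median log2 ratios of -0.41, -0.18 and -0.74 (RT4, RT112, SW780), and 16, 6 and 22 of 26 were below -0.3, where 33.5%, 25.2% and 28.2% of all loci were. After GC correction the medians were -0.60, -0.10 and -0.68 and the counts 21, 4 and 23. Of the 8407 loci with a GC value, 2499, 1750 and 2236 were below -0.3 after correction. In RT112 the share of the list was thus under that of all loci. The 5 below -0.3 in all lines were MCM3, RRM1, CDC45, CDC25A and MKI67. After GC correction the count was 4, where MCM3 and RRM1 were lost and MCM7 (-0.64, -0.42 and -0.58) was gained. CDC45, part of the replicative helicase, stood at 28.7 and 9.29 FPKM in RT4, 28.9 and 21.2 in RT112, and 18.6 and 13.2 in SW780 (log2 ratios -1.63, -0.45 and -0.50). PCNA, the sliding clamp of replication, had log2 ratios of -0.39, -0.05 and -0.90, and RRM2, a subunit of ribonucleotide reductase, of -0.19, -0.41 and -0.55. CCNE1, cyclin E1, went the other way with 0.57, 0.05 and 0.62. CDC25A, a phosphatase that activates cyclin-dependent kinases, had -0.49, -0.84 and -0.81, and E2F1, a transcription factor of S phase genes whose locus also carries the name PXMP4, 0.18, 0.15 and -0.12. After GC correction the RT112 values of PCNA (0.11), CCNE1 (-0.001) and E2F1 (-0.08) turned. The medians of the replication-dependent genes were -0.10, -0.09 and -0.16, nearly equal in RT4 and RT112. They rest on 4 genes of mixed direction. Without HIST2H2BE, left out for its low level, the mean of the medians became 0.089, so no order of lines is read from them. The difference between the lists was not tested.

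The chaperone list had median log2 ratios of -0.25, -0.10 and -0.26 for the lines in the same order, and the mRNA processing list -0.15, -0.03 and -0.12. RBBP4, SUPT16H, SSRP1 and NPM1 were below -0.3 in all lines. The count of 4 was 2 after GC correction, where RBBP4 (RT112 -0.13), SUPT16H (RT112 -0.23) and SSRP1 (RT4 -0.12) were lost and CABIN1 was gained, and 2 after libraries were rescaled to the same sum. SUPT16H, a subunit of the FACT complex that opens and rebuilds nucleosomes, stood at 68.4 and 48.4 FPKM in RT4, 56.0 and 41.8 in RT112, and 73.4 and 52.2 in SW780 (limma -0.46 ± 0.16 SE, adjusted p = 0.332). Its quisinostat libraries were all below its DMSO libraries, as were those of 4.43% of all loci. The gene was picked from the list for its fall, which favours such a separation. CHAF1A, of the CAF-1 complex that deposits H3 behind the replication fork, had log2 ratios of -1.06, 0.26 and -0.82, and NASP, which holds soluble H3 and H4, of -0.42, -0.19 and -0.59. After GC correction the RT112 value of CHAF1A turned to -0.07.

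The H3 and H4 chaperones ASF1A and ASF1B differed in direction in RT4 and SW780, in RT4 only before GC correction. ASF1A stood at 7.48 and 18.8 FPKM in RT4, 12.4 and 15.0 in RT112, and 9.21 and 18.7 in SW780, with the quisinostat library higher in each line (log2 ratios 1.33, 0.28 and 1.02, and 0.74, 0.51 and 0.84 after GC correction, limma 0.81 ± 0.25 SE, adjusted p = 0.317). ASF1B, the paralog tied to proliferation, had log2 ratios of -0.48, 0.17 and -0.75, and 0.20, -0.21 and -0.56 after correction. Of the H3.3 chaperones, HIRA had -0.13, -0.22 and 0.18, DAXX -0.32, 0.18 and -0.04, and ATRX 0.89, -2.34 and 0.32. After GC correction HIRA turned in RT4 (0.30), and DAXX turned in RT4 (0.02) and SW780 (0.05). ANP32E, which removes H2A.Z, had 1.08, 0.18 and -0.13. SLBP, which binds the stem-loop printed above, stood at 22.0 and 21.0 FPKM in RT4, 47.8 and 38.9 in RT112, and 40.5 and 26.3 in SW780, lower with quisinostat in each line (log2 ratios -0.07, -0.30 and -0.62, limma adjusted p = 0.476). Also on the mRNA processing list, CPSF2 had -0.15, -0.19 and -0.25, CSTF2 -0.09, -0.08 and 0.09, and ZNF473 -0.17, 0.19 and 0.92. After GC correction CPSF2 turned in RT112 (0.03) and CSTF2 in RT4 (0.09). On the chaperone list, CHAF1B, whose locus also carries the name MORC3, had -0.20, 0.20 and -0.18, RBBP4 -0.37, -0.35 and -0.46, and SPTY2D1 0.59, 0.05 and 0.45.

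**Figure D5:**
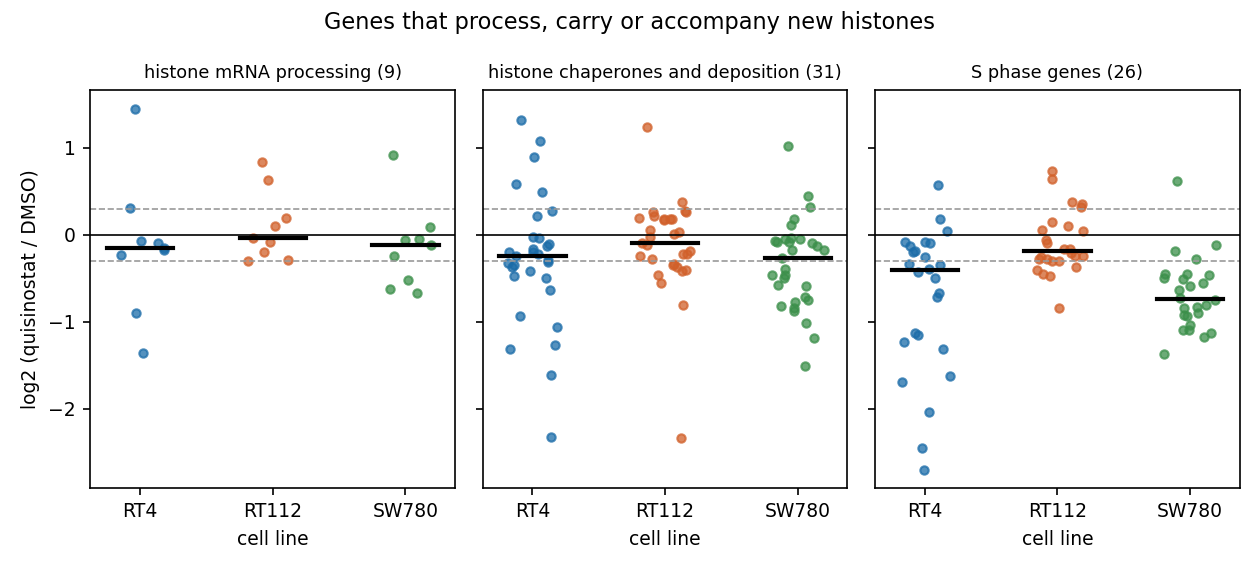
Log2 ratio of FPKM, quisinostat over DMSO (y axis), of the genes of each list in RT4, RT112 and SW780; each point is a gene, black bars are medians over the list, and dashed lines mark -0.3 and 0.3. The S phase medians are -0.41, -0.18 and -0.74, lower in RT4 and SW780 than in RT112.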

How the data were processed

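RNA of 6 libraries was measured, 1 per cell line and treatment. Per the labels and the methods, the authors aligned poly(A)-selected, stranded libraries with HISAT2 2.2.1, assembled them with StringTie 2.2.1 and took gene-level FPKM from Ballgown; the deposited values are FPKM, already divided by length and mapped fragments. Read counts, genome build and annotation are not given in the sources used here, so depth is unknown and its precision cannot be given. FPKM was used as 1 value per assembled locus (10066 loci, 9112 above 0 in all libraries). Tests used limma 3.58.1 on log2(FPKM + 1), mean FPKM of at least 1, trend, two-sided, Benjamini-Hochberg over 9430 loci, each line paired with its own DMSO library as the study compares them; such a fold change understates low genes. The fit was tested on simulated data with independent noise and planted log2 differences of 2 and 3. These exceed every limma difference of a member for quisinostat, so the simulation does not give the power at the sizes seen. GC correction used lowess (span 0.3) on GENCODE 29 transcripts. Named were all members and, of the lists, preset genes and, in each direction, the 2 whose least extreme ratio among the lines was greatest. SSRP1, NPM1, MCM3, RRM1 and MKI67 were named after their values were seen, as past the criterion. CABIN1 and MCM7 were named as past it after GC correction. Members and lists were chosen with earlier results of these data known. No sample was left out. Because 1 library stood for each line and treatment, p-values for quisinostat rest on the spread of its effect between lines. Those between lines rest on the spread around a fit that adds line and treatment. Alternatives comprised pseudocount, filter, centring, rescaling, GC, threshold, trend, block and each line left out.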

Additional observations from a re-analysis of the deposited data

Results flagged for a closer look

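With 1 library per line and treatment, 10 members had log2 ratios of opposite sign in different lines. Of all 9112 loci, 22.9% were above 0 in every line and 16.6% below 0 in every line. Mixed signs were thus the case for most loci too, and the count does not set the members apart. These differences between lines were not tested. In 3 of them 1 line was above 0.3 and another below -0.3. The log2 ratio of H1FX was higher in RT112 (1.98, and 0.78 after GC correction) than in RT4 (-1.77, and -0.08) by 3.74 before correction. That of H2AFJ was higher in RT112 (0.50) than in RT4 (-1.74) by 2.24, and its direction in RT112 turned to -0.25 after GC correction. That of HIST1H1C was higher in SW780 (0.50) than in RT4 (-0.86) by 1.36. Of the others, RT112 was above RT4 by 1.74 for H2AFY2, 0.82 for H2AFX and 0.53 for H3F3B. All gaps here are before GC correction. After it H2AFX was 0.49 in RT4 and -0.50 in RT112, so the order of these lines turned. RT4 was above SW780 by 1.12 for H1F0, and above RT112 by 0.54 for H2AFZ and 0.62 for HIST1H2AC. RT112 was above SW780 by 1.61 for HIST1H2BD.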

How the results depend on the processing

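The count of replication-dependent members above 0.3 in all lines (0) ranged from 0 to 1 when lines were left out (1 without SW780), and that of variants (0) from 0 to 1 (1 without RT4 and 1 without SW780). Members below -0.3 in all lines (1) were 0 at a threshold of 0.5 and 0 at 1, and 1 to 7 with a line left out (7 without RT112, 2 without SW780). For the genes of the 3 lists (9) the count was 0 at 0.5 and 0 at 1, and 9 to 31 with a line left out (31 without RT112). The mean of the medians of replication-dependent members (-0.12) was -0.034 with a pseudocount of 1, 0.089 with a mean FPKM of at least 1, -0.17 after centring and -0.073 after GC correction. Under GC correction the log2 ratio of H2AFX in RT4 became 0.49 and that of H2AFJ in RT112 -0.25. Members called between lines (1) were 0 without trend, 0 without the treatment term, and 0 to 1 with a line left out (0 without RT4 and 0 without SW780). Without RT4, 0 of 9430 loci were called, and without SW780, 64 were. Limma called 0 members for quisinostat in every setting tried, with no replicate block (0) too. Over all loci it called 9 of 8646 under GC correction and 0 in the other settings. A stricter threshold or a line left out changes these counts by construction; for the other moves the cause was not tested. The precision is limited by 1 library per line and treatment and by the unknown depth.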
